A study of Mus musculus with 2 samples.

Results

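Matrix metalloproteinases, their ADAMTS relatives and the TIMP inhibitors were examined in 2 RNA sequencing libraries of mouse bone marrow stromal cells, 1 from mice with acute graft-versus-host disease (aGVHD_V) and 1 from mice that only received a transplant (BMT). The genes were all protein-coding rows of the deposited expression table whose symbol starts with Mmp and a digit, Adamts, or Timp and a digit, a rule that uses no expression value. There were 50 such genes among the 54532 of the table, namely 22 MMP genes, 19 ADAMTS genes, 5 ADAMTS-like genes and 4 TIMP genes. An FPKM (fragments per kilobase of gene length, scaled to the library size used by the submitters) of 1 or more in at least 1 library was reached by 28 of the 50. These are called measured.

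Metalloproteinases are zinc enzymes that cut the proteins of the extracellular matrix. MMPs are made as inactive precursors, and between them they degrade fibrillar collagen, denatured collagen (gelatin), elastin and many signalling proteins. ADAMTS enzymes are secreted proteases with thrombospondin repeats, several of which cut the proteoglycans aggrecan and versican or trim procollagens, while the ADAMTS-like proteins carry the repeats without a protease domain. TIMPs bind the active site of these enzymes and block it. In bone marrow, stromal and bone cells use such enzymes to remodel matrix, and neutrophils store some of them in granules.

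All recipients were female CB6F1 mice irradiated with 2 doses of 4.0 Gy and transplanted 4 hours later with nucleated marrow cells of B6.SJL donors. The aGVHD_V group was also given spleen cells of C57BL/6 mice, and the BMT group was not. The sources used here do not give the ages of the mice, the number pooled in a library or the meaning of the V. In both groups cells positive for CD45, lineage antigens or CD71 and dead cells were removed by sorting. Each group had 1 library, so no difference has a replicate check and none was tested.

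Reads over genes numbered 11299834 in aGVHD_V and 10869191 in BMT. The library sizes implied by the deposited FPKM were 10661688 in aGVHD_V and 12127105 in BMT, so the deposited scale was not the sum of these reads. Rescaling to that sum multiplied every ratio of aGVHD_V over BMT by 0.846. Detected genes most often had a read number (the modal read number) of 44 in aGVHD_V and 14 in BMT, leaving out numbers under 4. A low gene was therefore taken to rest on few independent counts, more so in aGVHD_V. That 1 modal read number stands for 1 independent count is an assumption that was not tested. The marker lists below were chosen with earlier results of these data known. The 9 markers of mesenchymal stroma summed to an FPKM of 26.3 in aGVHD_V and 641 in BMT. All 9 were lower by 2-fold or more, and Lepr, the leptin receptor that defines these cells, was at 0 in aGVHD_V. The 6 osteolineage markers summed to 11.9 in aGVHD_V and 95.3 in BMT, with Ibsp and Sp7 at 0 in aGVHD_V and Bglap at 0 in both. The 6 endothelial markers summed to 11.2 in aGVHD_V and 57.4 in BMT. Of these, Cdh5, Kdr and Tek were at 0 in aGVHD_V, while Emcn had 1.58 in aGVHD_V and 1.43 in BMT. Pericyte and smooth muscle markers summed to 132 in aGVHD_V and 173 in BMT, and 2 of 5 measured were lower by 2-fold or more. The 10 neutrophil markers summed to an FPKM of 21079 in aGVHD_V and 15596 in BMT, with all 10 within 2-fold, so neutrophil RNA was present despite the sort. Ptprc, the gene of CD45, was at an FPKM of 7.85 in aGVHD_V and 9.28 in BMT. Macrophage markers summed to an FPKM of 118 in aGVHD_V and 150 in BMT, and none of the 6 was at 0. Of these, Mrc1 and Vcam1 were lower by 2-fold or more and the other 4 were within 2-fold. Vcam1 had 11.9 in aGVHD_V and 38.4 in BMT. C1qa, the 1 with a higher value in aGVHD_V, had 75.2 there and 58.1 in BMT. Erythroid markers summed to 131975 in aGVHD_V and 37114 in BMT (4 of 6 higher), megakaryocyte markers to 265 in aGVHD_V and 75.1 in BMT (3 of 4 measured higher), and B cell markers to 1.5 in aGVHD_V and 63.2 in BMT (4 of 4 measured lower). Osteoclast markers summed to 55.4 in aGVHD_V and 33.8 in BMT, with Acp5 higher and Ctsk at 0 in aGVHD_V. T cell markers summed to 28.2 in aGVHD_V and 17.6 in BMT (1 of 5 higher). The part of these cell types in the results below was not tested, and fewer cells of a type cannot be told apart from less RNA per cell.

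Of the 28 measured genes, 11 were lower in aGVHD_V by 2-fold or more, 2 were higher by as much and 15 were within that range, judged by the difference of log2(FPKM + 1). Lower genes thus made up 39.3% of the measured members, beside 19.4% of all 12942 measured genes. Higher genes made up 7.14% of the members, beside 8.65% of all measured genes. A gene is measured if either library reaches an FPKM of 1, so the filter and the call use the same values. Of the lower members, Adamts2, Adamts5, Adamts7, Adamts14, Adamts15, Mmp15, Mmp23 and Timp1 reached that limit in BMT only. Both higher members, Mmp21 and Adamts13, reached it in aGVHD_V only. All measured genes passed the same filter, and the shares were not tested. The median difference was -0.74 over the members and -0.07 over all measured genes. With values under 3 modal read numbers (132 reads in aGVHD_V and 42 in BMT) raised to that floor, 5 members were lower and 4 higher and the median was 0.18, beside 3.56% lower and 20.4% higher of all genes. With equal FPKM sums of both libraries 17 were lower and the median was -1.42, beside 33.8% lower of all genes and a shift of the median gene by -0.55. Among the 8 members that reached an FPKM of 10, 3 were lower and none higher, beside 7.63% lower and 7.08% higher of all genes at that level. Among the 20 members under 10, 8 were lower and 2 higher, beside 27.9% lower and 9.78% higher of all genes at that level.

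**Figure D1:**
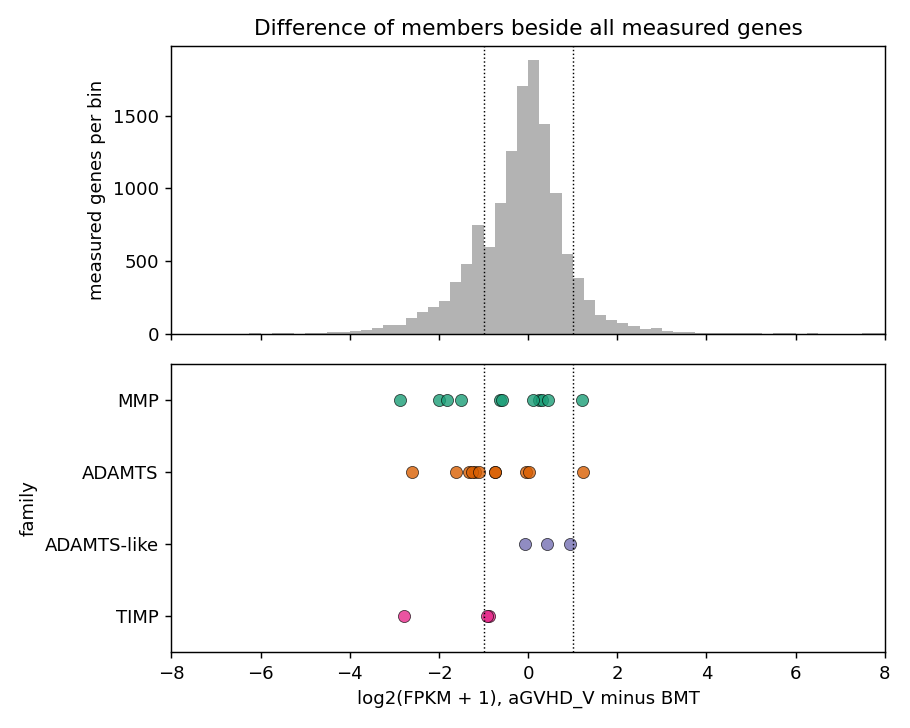
The upper panel counts all measured genes by their difference of log2(FPKM + 1), aGVHD_V minus BMT (1 library each, the outermost bins hold anything beyond the axis), and the lower panel places each measured member by family, with dotted lines at 2-fold. The members reach from -2.88 to 1.23, and the TIMP genes all lie below 0.

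A second reading used intervals of the ratio of FPKM, which were widened by counting 1 modal read number as 1 count and cover counting error only. A ratio was given to the 19 measured members with reads in both libraries and more reads than the floor in at least 1. Adamtsl5, with reads in both, was under the floor in each. The interval lay below 1 for 5 of them, Adamts1, Adamts2, Adamts5, Mmp2 and Mmp13, and above 1 for none. Over all 10192 measured genes with a ratio, it lay below 1 for 4.39% and above 1 for 7.52%. With library sizes of all recovered reads the interval also lay below 1 for Mmp14, Timp2 and Timp3, which made 8 members beside 9.51% of all genes.

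**Figure D2:**
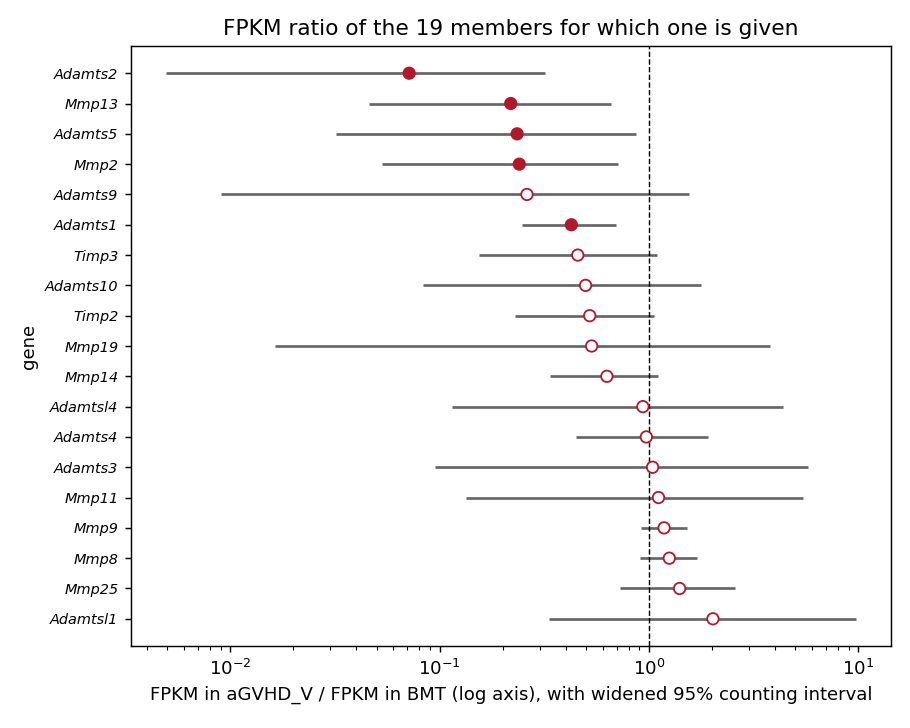
Points give the FPKM in aGVHD_V over that in BMT on a log axis for the 19 measured members with reads in both libraries and more than the floor in at least 1, lines give the widened 95% counting interval, and filled points mark intervals that leave out 1. The 5 filled points, from Adamts2 to Adamts1, all lie below 1, and the intervals of Mmp8 and Mmp9 are the narrowest around 1.

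The most abundant members were Mmp9 and Mmp8, which neutrophils store in granules. Mmp9, gelatinase B, which cuts gelatin and basement membrane collagen (ENSMUSG00000017737, GRCm38 chromosome 2, 164940780 to 164955850, plus strand), had an FPKM of 97.2 in aGVHD_V and 82.2 in BMT. Mmp8, the neutrophil collagenase (ENSMUSG00000005800, chromosome 9, 7558456 to 7568485, plus strand), had 96.0 in aGVHD_V and 76.7 in BMT. Mmp25, a membrane-anchored MMP of leukocytes, had 12.1 in aGVHD_V and 8.65 in BMT. Mmp9, Mmp8 and Mmp25 were slightly higher in aGVHD_V as deposited, by 1.18-fold for Mmp9 (interval 0.912 to 1.52), 1.25-fold for Mmp8 (0.906 to 1.7) and 1.4-fold for Mmp25 (0.725 to 2.57), and every interval included no difference. With library sizes of all recovered reads the log2 differences were -0.00 for Mmp9, 0.08 for Mmp8 and 0.22 for Mmp25. With equal FPKM sums of both libraries all 3 turned slightly lower, with log2 differences of -0.34, -0.25 and -0.09 in the same order. That scaling moved the median gene by -0.55, so relative to it these genes again lay on the higher side. Mmp8 and Mmp9 together made up 83.6% of the summed MMP level in aGVHD_V and 66.5% in BMT.

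Mmp13 and Mmp2, which stromal and bone cells make, were lower. Mmp13, the main collagenase of mouse bone (ENSMUSG00000050578), had an FPKM of 4.88 in aGVHD_V and 22.3 in BMT, on 139 and 724 reads, and was 4.58-fold lower (interval 1.52 to 21.7). Mmp2, gelatinase A of stromal cells (ENSMUSG00000031740, chromosome 8, 92827291 to 92853420, plus strand), had 4.06 in aGVHD_V and 16.9 in BMT and was 4.17-fold lower (interval 1.41 to 18.8). Among the collagenases Mmp13 was lower while Mmp8 lay within 2-fold, and among the gelatinases Mmp2 was lower while Mmp9 lay within 2-fold. Summed over all MMPs the FPKM was 231 in aGVHD_V and 239 in BMT, but without Mmp8 and Mmp9 it was 37.9 in aGVHD_V and 80.1 in BMT.

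Mmp14, the membrane-bound collagenase that activates the Mmp2 precursor together with Timp2 (ENSMUSG00000000957, chromosome 14, 54431612 to 54445364, plus strand), had an FPKM of 10.2 in aGVHD_V and 16.2 in BMT. It was 1.59-fold lower, and the interval of 0.905 to 2.97 included no difference. Mmp15, another membrane-type MMP, was without reads in aGVHD_V and had 120 in BMT (FPKM 1.83). Mmp23, a small MMP held in the membrane by its N-terminal part, was at 0 in aGVHD_V and had 180 reads in BMT (FPKM 6.34). Taking 3 modal read numbers in the library without reads as the floor, which is 132 reads in aGVHD_V and 42 in BMT, Mmp23 was at least 1.2-fold lower. No bound could be set for Mmp15.

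Few other MMPs were measured. Mmp11, stromelysin 3, had an FPKM of 3.34 in aGVHD_V and 3.0 in BMT, and Mmp19 had 1.3 in aGVHD_V and 2.45 in BMT. Both intervals were wide, 0.134 to 5.47 for the higher ratio of Mmp11 and 0.265 to 61.4 for the lower one of Mmp19, and the small difference of Mmp11 changed sign with equal FPKM sums (-0.37). Mmp11 overlaps Chchd10 on the opposite strand, which had an FPKM of 18.8 in aGVHD_V and 22.4 in BMT. The sources used here do not say whether strand was used in counting, so reads of genes that overlap on opposite strands cannot be told apart. Mmp21, known for its role in left-right patterning of the embryo, was at 1.3 in aGVHD_V and 0 in BMT. Its 37 reads were under the floor of the aGVHD_V library, so no fold is given although it counted among the 2 higher members. Mmp12, the macrophage elastase, stayed under the limit for a measured gene with an FPKM of 0.687 in aGVHD_V and 0.934 in BMT.

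**Figure D3:**
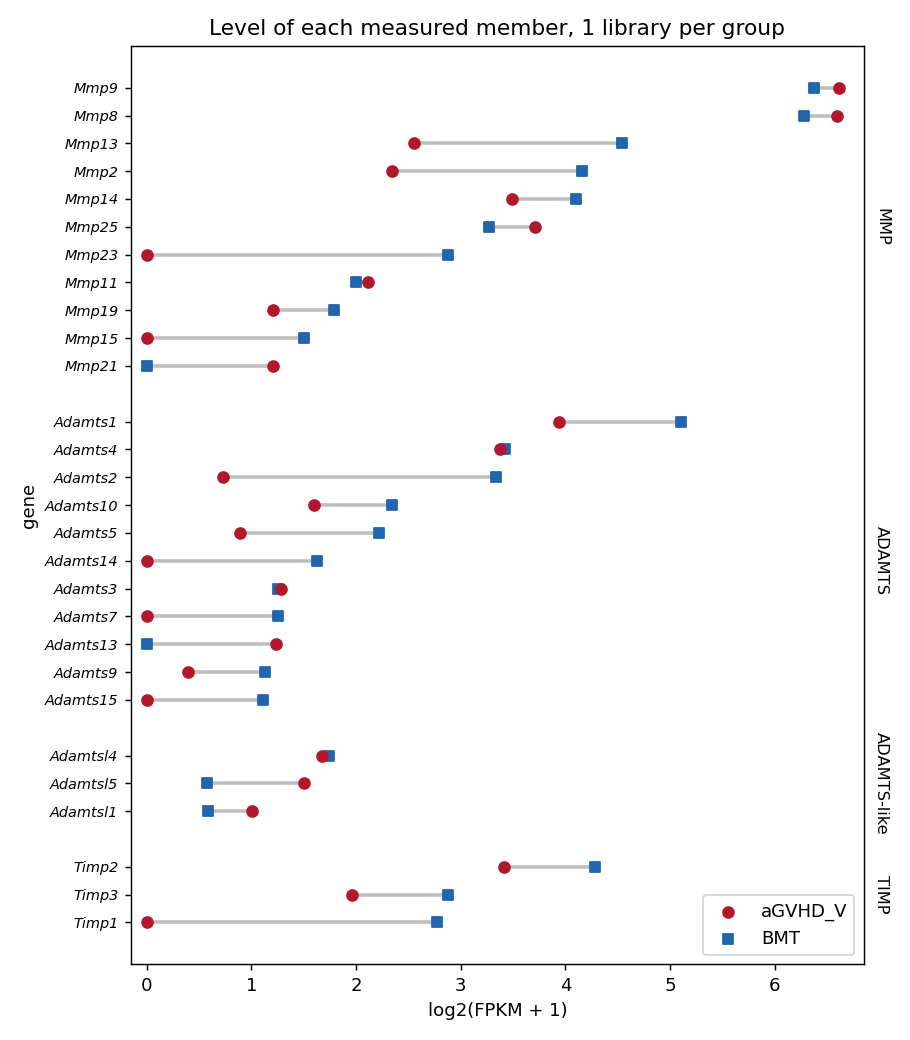
Each row is 1 measured member, the circle its log2(FPKM + 1) in aGVHD_V and the square that in BMT (1 library each), joined by a line and grouped by family. Mmp8 and Mmp9 lie far to the right with little distance between the libraries, whereas Mmp13, Mmp2, Adamts1 and Adamts2 lie well to the left in aGVHD_V, where 6 genes are at 0. The slight shift of Mmp8 and Mmp9 turns round with equal FPKM sums.

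Mmp8 and Mmp13 belong to 1 genomic cluster. The 9 members on chromosome 9 between 7272514 and 7699585 (GRCm38) span 427 kb, with Mmp13 at one end and Mmp7 at the other, and all but Mmp1b lie on the plus strand. Only Mmp8 and Mmp13 were measured there, and 5 of the 9 (Mmp1b, Mmp3, Mmp7, Mmp10 and Mmp20) had no reads in either library. The 2 expressed genes start 286 kb apart, with log2 differences of 0.32 for Mmp8 and -1.99 for Mmp13. Mmp12 lay between them at -0.2, and Mmp27, the next gene after Mmp8, was at 0 in aGVHD_V and had 6 reads in BMT.

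**Figure D4:**
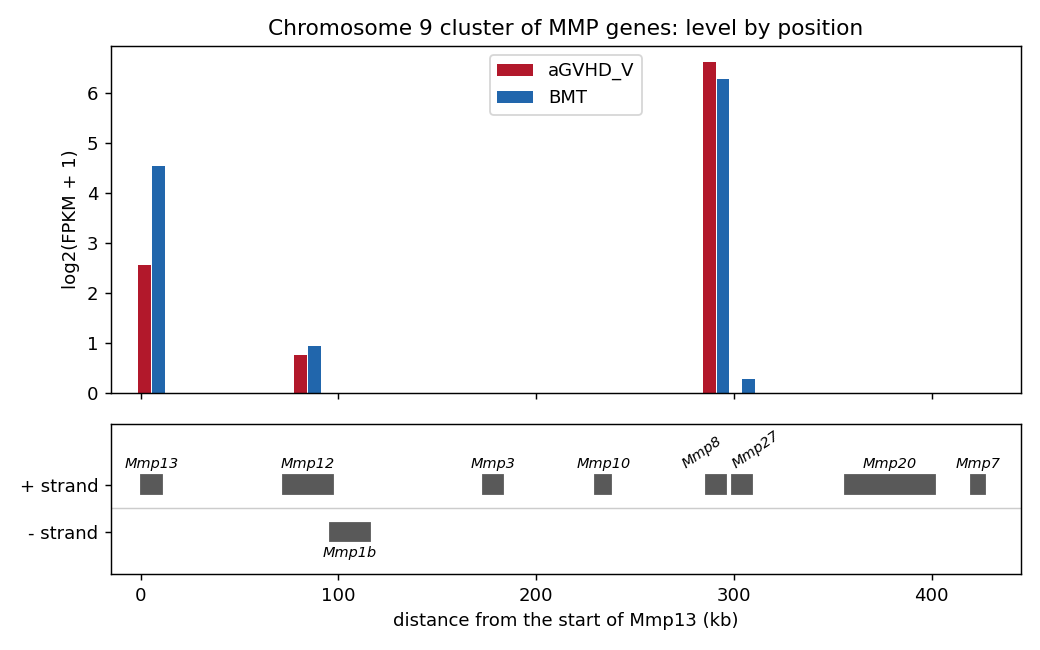
Bars give log2(FPKM + 1) of the 9 chromosome 9 members at their place in kb from the start of Mmp13, left bar aGVHD_V and right bar BMT (1 library each), above a map of the genes by strand. Mmp13 is the lower and Mmp8 the slightly higher gene in aGVHD_V (slightly lower with equal FPKM sums), and the stretch from Mmp1b to Mmp10 is empty.

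The promoters of this cluster were compared because AP-1, a dimer of Fos and Jun proteins, is a known regulator of several MMP genes. The 250 bases before the start were taken from RefSeq (GRCm38.p6), which held a window for 35 of the 50 members and for all 9 of the cluster. The AP-1 motif TGANTCA, which is its own reverse complement in form, was searched together with the PEA3/ETS motif AGGAAG on both strands. An AP-1 match was present in 7 of the 9 cluster genes (77.8%), counting a gene if any of its listed starts had one, beside 6.75% of all 32851 windows. The genes without a match in this stretch were Mmp8 and Mmp27. A PEA3/ETS match was present in 6 of the 9, beside 29.5% of all windows. Shares of members are per gene with any listed start allowed, whereas those of all windows are per window, so the measures differ. Mmp7 and Mmp12 each had an AP-1 match at 1 listed start and none at the other. The cluster genes are neighbours of 1 family, so their matches need not be independent. The windows of Mmp13, of Mmp8 and of the neighbour without reads, Mmp3, are shown 5′ to 3′ on the plus strand, with AP-1 and PEA3/ETS matches in capitals.
Mmp13, chr9:7272264-7272513: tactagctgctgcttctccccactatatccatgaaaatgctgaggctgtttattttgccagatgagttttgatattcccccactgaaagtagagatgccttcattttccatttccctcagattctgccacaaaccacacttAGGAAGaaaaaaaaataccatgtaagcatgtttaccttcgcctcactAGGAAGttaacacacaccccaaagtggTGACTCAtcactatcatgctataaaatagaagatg
Mmp8, chr9:7558179-7558428: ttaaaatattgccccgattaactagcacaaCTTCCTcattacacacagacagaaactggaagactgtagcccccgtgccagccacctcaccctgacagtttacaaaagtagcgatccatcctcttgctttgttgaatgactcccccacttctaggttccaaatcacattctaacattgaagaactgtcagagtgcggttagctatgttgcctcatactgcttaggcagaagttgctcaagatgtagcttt
Mmp3, chr9:7445572-7445821: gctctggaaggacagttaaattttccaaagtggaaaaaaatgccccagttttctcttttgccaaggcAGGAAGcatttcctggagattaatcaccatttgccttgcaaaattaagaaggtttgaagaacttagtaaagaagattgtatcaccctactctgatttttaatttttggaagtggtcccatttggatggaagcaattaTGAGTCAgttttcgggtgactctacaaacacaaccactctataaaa
The AP-1 match of Mmp13 began 35 bases before the start, with PEA3/ETS matches at 62 and 109 bases, and that of Mmp3 began 46 bases before the start. Mmp3 thus held the match and no reads in either library. Among the 19 measured members with a window, Mmp13 was the 1 gene with an AP-1 match (5.26%, beside 6.75% of all windows). Mmp2 and Mmp9 were among the measured members without a window and could not be searched. A match describes the letters and is not a binding site.

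Of the 11 measured ADAMTS genes, 6 were lower by 2-fold or more, 1 was higher and 4 were within that range, with a median difference of -1.11. This stands beside 19.4% lower and 8.65% higher of all measured genes and 27.9% and 9.78% of those under an FPKM of 10. Of the 6, only Adamts1, Adamts2 and Adamts5 had an interval below 1. Adamts7, Adamts14 and Adamts15 had no reads in aGVHD_V and no bound, and set to the floor they turned to 0.31, 0.14 and 0.02. The higher gene, Adamts13, was under the floor. Of the 11 measured MMP genes 4 were lower and 1 higher, with a median of -0.58, and the difference between the families was not tested. Summed over the family, the ADAMTS level was an FPKM of 30.3 in aGVHD_V and 67.6 in BMT. Adamts1, which cuts aggrecan and versican (ENSMUSG00000022893, chromosome 16, 85793827 to 85803113, minus strand), had an FPKM of 14.3 in aGVHD_V and 33.5 in BMT. It rested on 806 and 2156 reads and was 2.35-fold lower (interval 1.44 to 4.05).

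Of the other proteoglycan-cutting enzymes, Adamts5 had the 1 interval that left out no difference. Adamts5, the main aggrecanase of mouse cartilage (ENSMUSG00000022894), lies 53.1 kb from Adamts1 on the same strand. It had an FPKM of 0.852 in aGVHD_V and 3.64 in BMT and was 4.27-fold lower (interval 1.16 to 31.3). This rested on 98 reads in aGVHD_V, under the floor of that library, and 476 in BMT. Adamts4, aggrecanase 1, had 9.4 in aGVHD_V and 9.7 in BMT (ratio 1.03-fold lower, interval 0.52 to 2.23). Adamts9 had 0.312 in aGVHD_V and 1.19 in BMT (interval 0.645 to 111 of the lower fold). Adamts15 was at 0 in aGVHD_V and had 146 reads in BMT, too few for a bound.

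Adamts2, the main enzyme that removes the N-terminal propeptide of fibrillar procollagens (ENSMUSG00000036545, chromosome 11, 50602084 to 50807573, plus strand), had an FPKM of 0.653 in aGVHD_V and 9.12 in BMT, on 65 and 1033 reads. It was 14.0-fold lower (interval 3.13 to 204), the largest fold among members with reads in both libraries. Adamts14, a second enzyme of this kind, was at 0 in aGVHD_V and had 131 reads in BMT (FPKM 2.08), again too few. Adamts3, which also processes the lymphatic growth factor VEGF-C, had 1.43 in aGVHD_V and 1.38 in BMT, a small difference that turned lower with equal FPKM sums (-0.41).

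The remaining ADAMTS genes were low. Adamts10, which acts on fibrillin microfibrils, had an FPKM of 2.03 in aGVHD_V and 4.08 in BMT (2.01-fold lower, interval 0.564 to 12). Adamts7, which cuts the cartilage protein COMP, was at 0 in aGVHD_V and had 106 reads in BMT. It overlaps Tbc1d2b on the opposite strand, which had an FPKM of 11.3 in aGVHD_V and 8.58 in BMT. Adamts13, the protease that trims von Willebrand factor, was the other higher member, with 71 reads in aGVHD_V (FPKM 1.35) and none in BMT. Those 71 reads were again under the floor, so no fold is given.

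On the scale of log2(FPKM + 1), which understates differences of low genes, the 3 measured ADAMTS-like genes were within 2-fold. Adamtsl4, a fibrillin-binding protein, had an FPKM of 2.19 in aGVHD_V and 2.34 in BMT. Adamtsl5 had 1.83 in aGVHD_V and 0.489 in BMT, and Adamtsl1 had 1.01 in aGVHD_V and 0.497 in BMT. Adamtsl5 was under the floor in both libraries, and the interval of the 2.02-fold higher Adamtsl1 was 0.333 to 9.75.

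All TIMP genes had lower values in aGVHD_V. Their summed FPKM was 13.1 in aGVHD_V and 31.4 in BMT, and the direction of Timp1, Timp2 and Timp3 was the same with every rescaling of the libraries. Timp2, the inhibitor that also takes part in Mmp2 activation (ENSMUSG00000017466, chromosome 11, 118301069 to 118355740, minus strand), had an FPKM of 9.68 in aGVHD_V and 18.5 in BMT. It was 1.92-fold lower (interval 0.951 to 4.35) and made up 73.9% of the summed TIMP level in aGVHD_V and 59.0% in BMT. Timp3, which is bound to the matrix and also inhibits several ADAM and ADAMTS enzymes (ENSMUSG00000020044, chromosome 10, 86300372 to 86349506, plus strand), had 2.89 in aGVHD_V and 6.34 in BMT. It was 2.19-fold lower (interval 0.916 to 6.49).

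Timp1, an inhibitor that many cells induce in inflammation (ENSMUSG00000001131, chromosome X, 20870166 to 20874735, plus strand), was without reads in aGVHD_V and had 63 in BMT (FPKM 5.85). Its gene is short, so this FPKM stands for few reads, and no bound could be set. With both libraries held at their floors its difference was 1.13 in place of -2.78, because the floor of the aGVHD_V library lies above the BMT value. Timp4 stayed under the limit for a measured gene, with an FPKM of 0.525 in aGVHD_V and 0.672 in BMT.

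**Figure D5:**
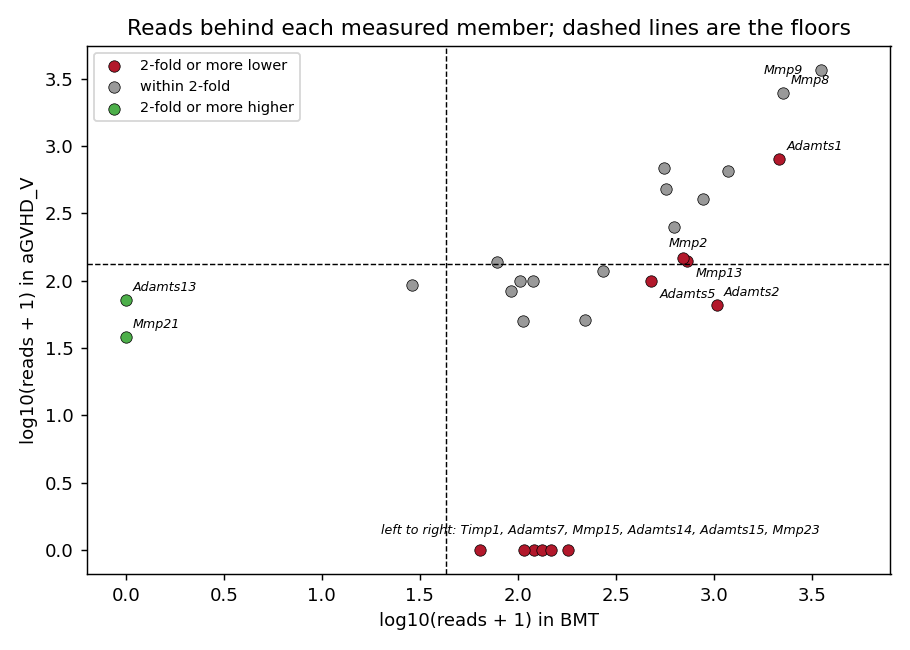
Each point is 1 measured member, placed by log10(reads + 1) in aGVHD_V (vertical) and in BMT (horizontal, 1 library each), with dashed lines at the floors of 132 reads for aGVHD_V and 42 for BMT. The 6 lower genes without reads in aGVHD_V held between 63 and 180 reads in BMT, and both higher genes lie under the aGVHD_V floor.

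In all, 6 of the 28 measured members (Adamts7, Adamts14, Adamts15, Mmp15, Mmp23 and Timp1) had no reads in aGVHD_V, and 2 had none in BMT. Among all measured genes the shares were 12.1% for aGVHD_V and 2.92% for BMT. The other 22 members were not measured. Of these, 15 had no reads in either library, namely Adamts6, Adamts8, Adamts16 to Adamts20, Adamtsl2, Mmp1b, Mmp3, Mmp7, Mmp10, Mmp16, Mmp20 and Mmp24. The rest had reads below an FPKM of 1, and besides Mmp12 and Timp4 these were Mmp17, Mmp27, Mmp28, Adamts12 and Adamtsl3, each without reads in aGVHD_V.

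Genes that activate or restrain these enzymes mostly lay within 2-fold. Of 15 listed, 10 were measured, of which 3 (30%) were lower by 2-fold or more and none higher, beside 19.4% lower and 8.65% higher of all measured genes, with a median of -0.07, equal to that of all measured genes. Lrp1, the receptor that clears protease and inhibitor complexes, was 4.85-fold lower (2.72 in aGVHD_V and 13.2 in BMT, interval 2.69 to 9.63), and Serpine2, an inhibitor of thrombin and urokinase, was 3.31-fold lower (6.36 in aGVHD_V and 21.1 in BMT, interval 1.87 to 6.41). Plau, the plasminogen activator urokinase, had 1.62 in aGVHD_V and 4.77 in BMT (interval of the lower fold 0.397 to 161). Its receptor Plaur had 82.5 in aGVHD_V and 47.9 in BMT (1.72-fold higher, interval 1.21 to 2.42). Bsg, basigin, which induces MMPs in neighbouring cells, had 514 in aGVHD_V and 320 in BMT (1.61-fold higher, interval 1.37 to 1.88). With equal FPKM sums the ratios of Plaur (1.15, interval 0.813 to 1.62) and Bsg (1.08, interval 0.916 to 1.26) no longer left out 1.

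The other genes named from that list lay within 2-fold. Furin, a convertase that activates membrane-type MMPs, had an FPKM of 10.3 in aGVHD_V and 9.95 in BMT. Reck, a membrane-anchored MMP inhibitor, had 1.94 in aGVHD_V and 2.47 in BMT. Lcn2, which binds Mmp9 in neutrophils, had 368 in aGVHD_V and 290 in BMT (1.27-fold higher, interval 1.09 to 1.48), but with equal FPKM sums its ratio turned to 0.851 (interval 0.73 to 0.99).

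Of 11 listed ADAM proteases, relatives anchored in the membrane, 7 were measured. Of these, 1 (14.3%) was lower by 2-fold or more and none higher, beside 19.4% lower and 8.65% higher of all measured genes. That gene was Adam12, at 0 in aGVHD_V and an FPKM of 1.72 in BMT, at least 1.47-fold lower. Adam10 had 74.0 in aGVHD_V and 45.5 in BMT (1.63-fold higher, interval 1.25 to 2.1, and 0.837 to 1.41 with equal FPKM sums), and Adam17, the shedding enzyme of TNF, had 9.95 in aGVHD_V and 12.8 in BMT. Of 5 genes for cutting the C-terminal propeptide of procollagen, 2 were measured. Pcolce, the enhancer of that step, was 13.6-fold lower (1.3 in aGVHD_V and 17.7 in BMT, interval 2.66 to 322), whereas the enzyme Bmp1 had 2.79 in aGVHD_V and 3.98 in BMT.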

How the data were processed

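Each of the 2 libraries is 1 sample, assigned to its group by the labels. The deposited table gives FPKM per gene, scaled by the authors per the file headers, and the submitters' processing notes name edgeR 3.18.1, GRCm38 and mm10. The sources used here do not give the aligner or the counter. The table also has 1 column of per-sample values that fits no label and was left out. FPKM times gene length was a whole multiple of 1 step in 100.0% of values above 0 (tolerance 0.05), which gave the reads per gene. Of the 50 members, 49 had the same position in GENCODE M21, the exception being Adamts19. A further overlap of a member with another gene is not reported here.

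Differences are log2(FPKM + 1), aGVHD_V minus BMT, which understates those of low genes, and 1 or more is called 2-fold. Ratios have no pseudocount and have exact conditional binomial (Clopper-Pearson) 95% intervals on reads divided by the modal read number (window of 7, read numbers under 4 left out). These intervals and the floors cover counting error only. No fold is given where both libraries are at or under the floor, and no bound where it would be under 1. No p-value was computed. The scripts (Python 3.11.15, pandas 2.3.3, numpy 2.4.6, scipy 1.17.1) were tested on simulated data. Every measured member is named with its values. The members, lists and alternatives were chosen with earlier results of these data known.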

Additional observations from a re-analysis of the deposited data

How the results depend on the processing

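No paired analysis was possible because each group has 1 library. The main counts were 11 lower and 2 higher members with a median of -0.74. A pseudocount of 5 gave 6 lower and 0 higher, and so did an FPKM minimum of 5, which tests fewer genes. Equal FPKM sums of 1000000 gave 17 lower and a median of -1.42, with the median gene moved by -0.55; library sizes of all recovered reads moved it by -0.21. With genes under the floor set to it there were 5 lower and 4 higher, 55.6% lower among those outside 2-fold in place of 84.6%, and the median was 0.18. By construction that setting raises low genes in the aGVHD_V library, whose floor is higher, and it reversed Timp1 (1.13), Adamts14 (0.14), Mmp15 (0.22), Adamts7 (0.31) and Adamts15 (0.02), and turned the sign of the smaller differences of Mmp19 (0.38) and Adamtsl4 (0.24). The pseudocount of 5 left 100% lower, as did the FPKM minimum of 5. The other settings (pseudocount 0.1, recovered-read sizes, no hemoglobin, mitochondrial and ribosomal protein genes, centring, no filter) gave 11 to 13 lower and 2 or 3 higher. Intervals below 1, recounted under scalings chosen after seeing the data, numbered 8 with equal FPKM sums (24.5% of all genes) and 8 with recovered-read sizes (9.51%), against 5 as deposited (4.39%). Equal sums also turned the ratio of Lcn2 to 0.851. With each read taken as 1 count, 15 of 19 intervals left out 1, of which 11 were below and 4 above. Depth limits genes under about 132 reads in the aGVHD_V library and 42 in the BMT library.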
